A study of Homo sapiens with 3 samples.

Results

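The genes described here encode 9 subunits of the Polycomb repressive complexes: EZH2, EZH1, SUZ12, EED and JARID2 of complex 2 (PRC2), and RNF2, RING1, BMI1 and CBX8 of complex 1 (PRC1). They were chosen by name as subunits of these complexes, and each was looked up by its Ensembl identifier in a table of RNA recovered with CTCF. The table listed 8 of the 9 among its 17201 genes, and CBX8 was absent. For background, 60.5% of RefSeq protein-coding genes with a single Ensembl identifier were listed.

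Polycomb complexes keep developmental genes silent. PRC2 methylates a lysine of histone H3: EZH2 or EZH1 carries the catalytic domain, SUZ12 and EED are needed for its activity, and JARID2 is an accessory subunit that helps bring the complex to chromatin. PRC1 attaches ubiquitin to histone H2A through RNF2 or RING1, each paired with a PCGF protein such as BMI1, while CBX proteins such as CBX8 bind the methylated histone. RNA is known to bind PRC2, but the values below concern RNA mapped to the Polycomb genes, recovered with another protein.

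The measurement was PAR-CLIP of CTCF, the zinc-finger protein that organises chromatin loops, in U2OS, an established human osteosarcoma cell line. All cells were given 400 µM 4-thiouridine for 16 to 24 h and irradiated with ultraviolet light of 365 nm at 400 mJ/cm2, which crosslinks the labelled RNA to proteins that touch it, and CTCF was then precipitated from nuclear lysate. The aim stated in the series title was to find RNAs in direct contact with CTCF. Its 3 samples are 2 biological replicates, each precipitated with another lot of the same antibody, and the merge of their sequencing data. Only the merge is analysed here, so there is 1 value per gene, no replicate error and no test (0 tests were run), and a control precipitation and RNA abundance were not used here.

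The table gives whole-number counts between 6 and 6801 that sum to 1322047. An absent gene either had fewer than 6 counts or was left uncounted. Intervals given with a count are exact 95% Poisson intervals and cover counting error only, with each count treated as independent. Amplified reads are not independent molecules, so if reads were counted these intervals are too narrow. The same holds for the intervals of shares and ratios. In all 2437 pairs of nested intervals the inner gene never had more counts than the outer (0 pairs). A read in overlapping genes thus appears to enter each of their counts, and 40.8% of listed genes overlapped another. Strand is not given in the sources used here, so a count may hold reads from both strands. Markers of mesenchymal cells were listed for 8 of 10 genes, led by fibronectin (FN1, 1277 counts), CD44 (632) and collagen COL1A1 (602), with THY1 lowest at 28 and NT5E and COL1A2 absent. Of 8 blood markers (among them PTPRC, CD3E, CD14, HBB, HBA1, SPI1 and ITGAM) 0 were listed. Of 8 epithelial markers 4 were listed: KRT8 (206) and KRT18 (146), whose intervals overlap each other, CDH1 (13) and KRT14 (8), while EPCAM, KRT5, ALB and CLDN4 were absent. Over RefSeq protein-coding genes the listed share was 60.5%.

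The 8 listed Polycomb genes had 13 to 289 counts with a median of 87.5, beside a median of 43 for listed protein-coding genes and 31 for all listed genes. Together they held 963 counts, or 0.0728% of the summed count (95% Clopper-Pearson interval 0.0683 to 0.0776%). Longer intervals collect more counts, so each gene was also placed among about 344 listed genes with intervals of similar length (50 groups). Whether an interval spans its whole gene was not checked, so a gene with a short interval need not be a short gene. This holds for all counts, levels per kb and percentiles given here. In this placing 6 of the 8 lay above the median of their group, as did 53.8% of listed protein-coding genes and 49.2% of all listed genes. RING1 and EZH1 lay below it. Of the 8, 3 (JARID2, SUZ12 and BMI1) had 100 counts or more, beside 26.1% of listed protein-coding genes. With 8 genes, each held to the table's floor, no test was made of these counts.

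**Figure D1:**
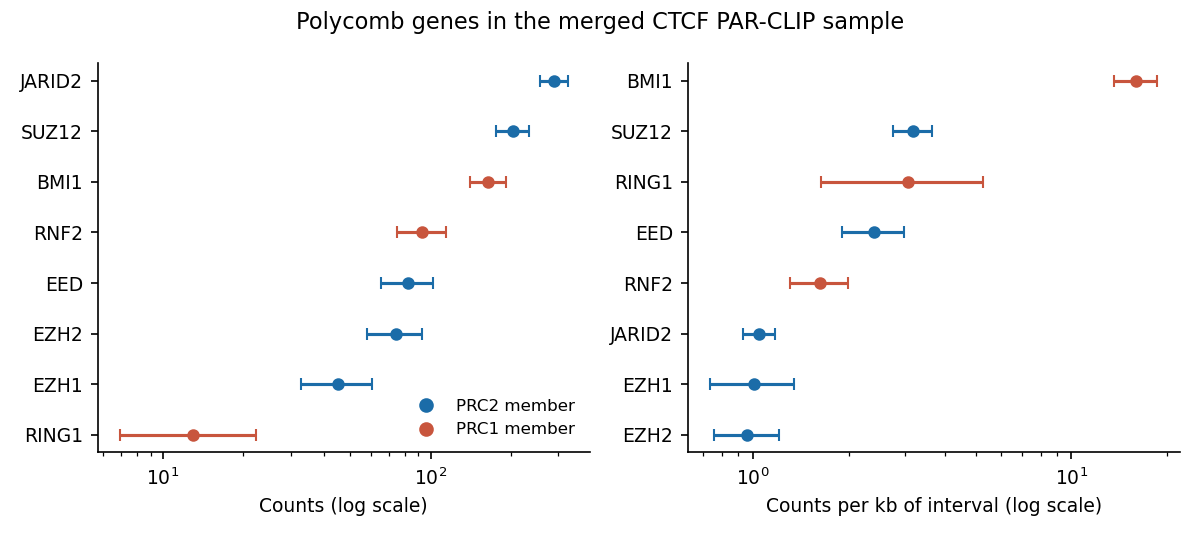
Counts (left) and counts per kb of interval (right) of the 8 listed Polycomb genes in the merged sample, on log axes, with 95% Poisson intervals as bars. JARID2 is first by count at 289 and BMI1 first per kb at 16.0, while EZH1 and EZH2 lie together near 1 count per kb.

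Within the core of PRC2, SUZ12 had the highest count and the catalytic subunits the lowest. By count, EED and EZH2 did not differ beyond counting error (ratio 1.11, 95% interval 0.799 to 1.54). SUZ12 had 203 counts (176 to 233) over a 64.0 kb interval on chromosome 17 (30264037 to 30328064, hg19), which is 3.22 times the median of its length group (86.3rd percentile). EED, the subunit that binds the methylated histone tail and stimulates the enzyme, had 82 counts (65.2 to 102) over 34.2 kb on chromosome 11 (85955586 to 85989778), at the 69.0th percentile. These values place both structural subunits in the upper part of their length groups, and neither interval overlaps another listed gene.

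EZH2, the main methyltransferase of dividing cells, had 74 counts (58.1 to 92.9) over 76.9 kb on chromosome 7 (148504475 to 148581375). That is 1.04 times its group's median, at the 52.6th percentile. EZH1, its paralog with weaker activity, had 45 counts (32.8 to 60.2) over 44.8 kb on chromosome 17 (40852293 to 40897048), 0.849 times the median and at the 45.9th percentile. Both enzymes were thus close to the middle of the listed genes of their length.

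EZH2 held 62.2% of the counts of the pair (95% Clopper-Pearson interval 52.8 to 70.9%), but its interval is the longer one. Per kb, EZH2 had 0.962 counts and EZH1 1.01, and the EZH2 share became 48.9% (39.5 to 58.7%). No difference between the 2 enzymes per length was therefore detectable at this depth.

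JARID2 had the highest count of all 8 genes, 289 (257 to 324), over the longest interval, 276 kb on chromosome 6 (15246527 to 15522252). It lay at the 82.3rd percentile of its length group, 2.79 times the median of 103.5. Per kb its level was 1.05, beside 1.01 for EZH1 and 0.962 for EZH2, but relative to genes of its own length JARID2 was the higher.

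**Figure D2:**
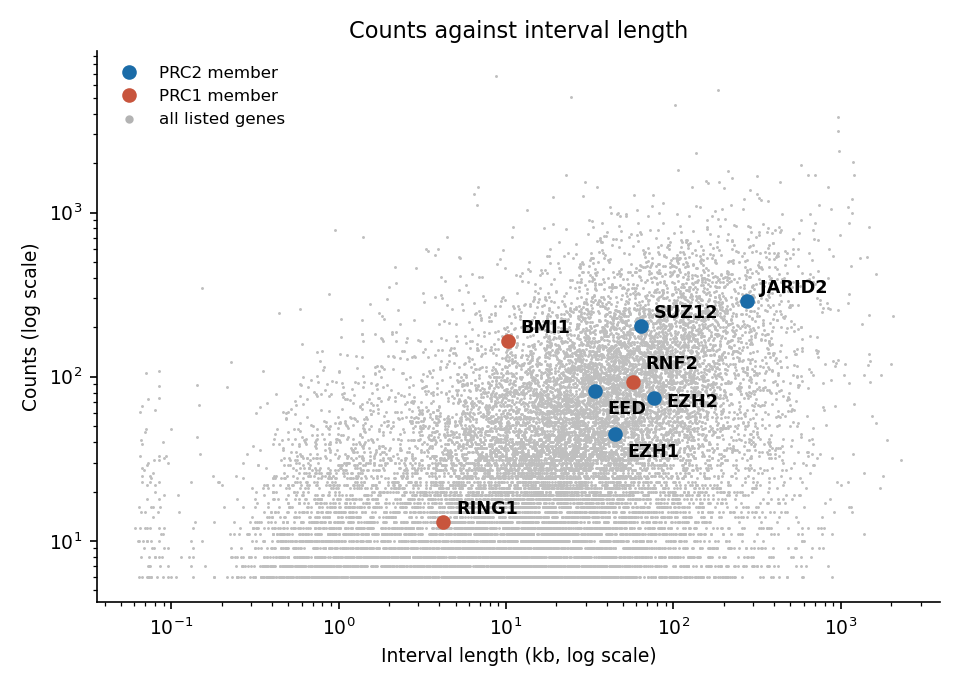
Counts against interval length (kb) for all 17201 listed genes (grey) with the 8 listed Polycomb genes coloured by complex, both axes logarithmic. BMI1 stands highest relative to genes of its length, at 164 counts over 10.3 kb, and RING1 has 13 counts over 4.23 kb.

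Per kb, the listed PRC1 members ranged more widely (1.62 to 16.0) than those of PRC2 (0.962 to 3.17), through BMI1 alone. The other listed PRC1 members, RNF2 (1.62) and RING1 (3.07), lay within the PRC2 range. RNF2 (also called RING1B), the main ubiquitin ligase of PRC1, had 93 counts (75.1 to 114) over 57.2 kb on chromosome 1 (185014496 to 185071740), 1.66 times its group's median and at the 70.1st percentile. RING1, the paralogous ligase, had 13 counts (6.92 to 22.2) over only 4.23 kb on chromosome 6 (33176272 to 33180499), 0.765 times the median and at the 38.4th percentile. RNF2 held 87.7% of the counts of this pair (79.9 to 93.3%). Per kb the order was the opposite, with 1.62 for RNF2 and 3.07 for RING1, and the RNF2 share was 34.6% (22.7 to 50.7%). Since that interval includes an equal share, the 13 counts of RING1 do not resolve which ligase had the higher level per length.

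BMI1, the PCGF subunit first known as an oncogene partner of MYC, stood apart from the other members. It had 164 counts (139.9 to 191) over 10.3 kb on chromosome 10 (22610140 to 22620413), 6.56 times the median of its length group and at the 96.2nd percentile. It was the single member (1 of 8) above the 90th percentile of its group, where 11.5% of listed protein-coding genes lay. Its 16.0 counts per kb were 5.03 times those of SUZ12, the next member (95% interval of the ratio 4.07 to 6.22, counting error only).

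The BMI1 interval was also the one member interval that overlaps another listed gene, which limits what its count says. COMMD3-BMI1 is a read-through gene that starts at COMMD3, which encodes a protein of endosomal sorting, and runs into BMI1. It was listed with 114 counts over 10.2 kb (22605317 to 22615487), and COMMD3 alone with 18 over 4.33 kb (22604903 to 22609235). COMMD3-BMI1 shares 5.35 kb with BMI1, which is 52.1% of the BMI1 interval. If each read is counted in every interval it lies in, at most 114 of the 164 counts are shared and at least 50 lie in the 4.93 kb of BMI1 beyond the read-through interval. That is 10.2 counts per kb, and BMI1 with 50 counts over 4.93 kb would lie at the 82.7th percentile. Likewise at least 96 of the 114 counts of COMMD3-BMI1 lie outside COMMD3. The COMMD3 interval does not reach BMI1, and its 4.15 counts per kb were fewer than the 16.0 of BMI1. Which transcript the shared reads came from was not tested.

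**Figure D3:**
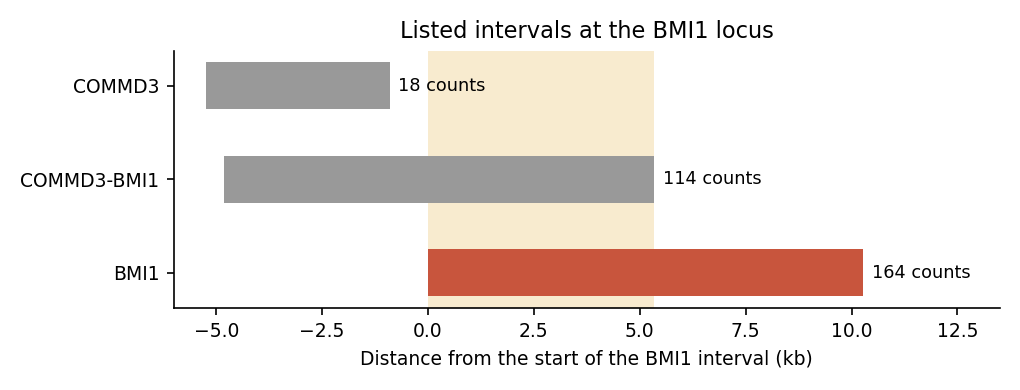
Intervals listed at the BMI1 locus, drawn to scale as distance in kb from the start of the BMI1 interval, with the counts of each. The shaded 5.35 kb lie in both COMMD3-BMI1 (114 counts) and BMI1 (164 counts), and COMMD3 (18 counts) ends 0.904 kb before BMI1.

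The annotated starts at this locus are shown because BMI1 has one apart from that of the read-through gene, while the table's intervals overlap. Sequences are from RefSeq for GRCh38.p14, plus strand, with the 120 bases before the start in lower case and the first 20 transcribed bases in capitals. COMMD3 and COMMD3-BMI1 have the same start window in RefSeq, although their intervals in the table begin at different positions, while BMI1 has a start of its own, 4.71 kb further along.
COMMD3 and COMMD3-BMI1, chr10:22316268-22316407: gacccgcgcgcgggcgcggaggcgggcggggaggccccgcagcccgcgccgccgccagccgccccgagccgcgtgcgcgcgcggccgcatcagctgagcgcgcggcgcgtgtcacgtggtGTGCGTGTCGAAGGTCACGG
BMI1, chr10:22320979-22321118: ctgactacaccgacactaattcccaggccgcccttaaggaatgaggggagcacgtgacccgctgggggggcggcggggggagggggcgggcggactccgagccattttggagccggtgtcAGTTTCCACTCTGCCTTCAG

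The 250 bases before these starts held 80.0% and 76.8% G or C, in the order shown, against a median of 58.0% (quartiles 46.4 and 68.0%) over 34943 annotated start windows. This is a property of the DNA at the starts and says nothing of the reads.

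CBX8, the chromodomain subunit, was absent although its identifier is known. CBX2, its neighbour in RefSeq's gene order on chromosome 17, was listed with 28 counts, or 2.84 per kb. No level can be given for CBX8.

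Summed over members, PRC2 held 693 counts and PRC1 270, so that PRC2 had 72.0% (69.0 to 74.8%). The 5 PRC2 intervals span 496 kb and the 3 listed PRC1 intervals 71.7 kb. Per kb, PRC2 had 1.40 counts and PRC1 3.76, and the PRC2 share was 27.1% (24.4 to 30.0%). BMI1 supplied 164 of the PRC1 counts. Without BMI1, which overlaps another gene, PRC2 held 86.7% of the counts. Per kb, PRC1 without BMI1 had 1.72 counts and the PRC2 share was 44.8% (39.8 to 50.1%).

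Ordered per kb, the levels ran BMI1 (16.0), SUZ12 (3.17), RING1 (3.07), EED (2.40), RNF2 (1.62), JARID2 (1.05), EZH1 (1.01) and EZH2 (0.962). Neighbours that did not differ beyond counting error were SUZ12 and RING1 (ratio 1.03, interval 0.590 to 1.97), RING1 and EED (1.28, 0.655 to 2.32), JARID2 and EZH1 (1.04, 0.759 to 1.46), and EZH1 and EZH2 (1.04, 0.705 to 1.53). The ratio of EED to RNF2 was 1.48 (1.08 to 2.01) and that of RNF2 to JARID2 1.55 (1.21 to 1.96). The median over listed protein-coding genes was 1.54 counts per kb, and BMI1, SUZ12, RING1, EED and RNF2 were above it and JARID2, EZH1 and EZH2 below. The interval of RNF2 (1.31 to 1.99) includes that median. This placing is not matched on length, and for 2 members the matched one is the opposite: RING1 lay below the median of its length group (0.765 times) and JARID2 above it (2.79 times).

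Copies of these genes elsewhere in the genome could take or give reads, because the treatment of reads that map to several places is not given in the sources used here. Of 6 pseudogenes or antisense genes named after a member (SUZ12P1, BMI1P1, EEDP1, EZH2P1, RNF2P1 and JARID2-AS1), 1 was listed. SUZ12P1, a pseudogene made by duplication of part of SUZ12, had 133 counts (111 to 158) over 60.7 kb on the same chromosome (29036317 to 29097052), 1.17 Mb before SUZ12. SUZ12 held 60.4% of the 336 counts of both (55.0 to 65.7%). The SUZ12P1 interval also overlaps the end of CRLF3, which had 34 counts. The count of SUZ12 is therefore uncertain in both directions, as reads from similar stretches may have been assigned to either copy.

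Of 48 further subunits and opposing enzymes, 43 were listed with 6 to 1696 counts and a median of 66, and 31 of these 43 (72.1%) lay above the median of their length group, beside the 53.8% of listed protein-coding genes. These lists and those below, like the members, were chosen with earlier results of these data known, so the shares only describe them. The 9 other PRC2 genes included 7 that were listed. LCOR, whose long form is a PRC2 accessory protein, had 313 counts, the accessory subunit MTF2 134 and AEBP2, another, 88, while EZHIP, an inhibitor of EZH2, had 6. The AEBP2 interval overlaps EEF1A1P4, a pseudogene with 27 counts. The accessory gene PHF1 and EPOP were absent. In this group 6 of 7 lay above the median of their length group.

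Alternative subunits of PRC1 had lower medians, 41 for the PCGF genes, 29 for the CBX genes and 30.5 for the PHC and SCM genes. Among the other PCGF genes, BMI1's paralogs, 3 of 5 were listed: PCGF1 with 50 counts over 2.11 kb (88.7th percentile), PCGF6 with 41 over 48.3 kb (43.5th) and PCGF3 with 20 over 29.2 kb (27.6th). PCGF2, the closest paralog of BMI1, and PCGF5 were absent. All 4 other CBX genes were listed, with CBX6 highest at 101 counts (90.6th percentile), CBX7 at 30 and CBX2 at 28. All 6 PHC and SCM genes, which encode polymerising or chromatin-binding subunits, were listed, with SCMH1 at 201, PHC2 at 41, PHC3 at 38 and PHC1 at 6. Over these 3 groups, 7 of 13 listed genes lay above the median of their length group, which is close to the background of 53.8%.

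All 12 genes of variant PRC1 complexes were listed, beside 60.5% of RefSeq protein-coding genes. Of these, 9 lay above the median of their length group, beside 53.8% of listed protein-coding genes. AUTS2, a subunit of a variant complex that favours transcription, had 1696 counts over 1194 kb (98.0th percentile). Per kb AUTS2 had 1.42 counts, below the median of 1.54 over listed protein-coding genes. RYBP, which replaces CBX proteins, had 246 and MGA, a MAX-binding transcription factor, 174, while BCORL1, a corepressor, was lowest at 11.

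Genes of the complex that removes ubiquitin from H2A, and so opposes PRC1, had the highest median of these lists. Of 10, 9 were listed with a median of 237. Of these, 8 lay above the median of their length group, beside 53.8% of listed protein-coding genes. Above its 90th percentile lay 4, beside 11.5% of listed protein-coding genes. OGT, the enzyme that attaches N-acetylglucosamine to nuclear proteins, had 638 counts over 42.8 kb (99.4th percentile). ASXL2 had 545 and ASXL1 430. Both are partners of the deubiquitinase BAP1, and 3 listed pseudogenes overlap the ASXL2 interval. MBD6 was lowest at 10 and ASXL3 absent. Of the H3 demethylases that remove the PRC2 mark, KDM6A had 207 counts (72.1st percentile) and KDM6B 16 over a 5.44 kb interval, equal to its group's median.

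Textbook targets of Polycomb repression had low counts. Of 16, 6 were listed, beside 60.5% of RefSeq protein-coding genes. They had 7 to 49 counts and a median of 15.5. Above the median of its length group lay 1 of 6, beside 53.8% of listed protein-coding genes. Below its 25th percentile lay 4, beside 21.1% of listed protein-coding genes. HOXA9, a homeobox gene, had 49 counts over 3.10 kb, but its interval overlaps another listed protein-coding gene. The transcription factor genes GATA4 and WT1 had 31 and 16, and HOXD10 and NKX2-5 had 7 each. The tumour suppressors CDKN2A and CDKN2B and the developmental genes HOXA13, HOXD13, PAX6, PAX3, NEUROG2, SOX1, TBX5 and FOXA2 were absent. Whether these genes were transcribed in the cells was not analysed here.

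**Figure D4:**
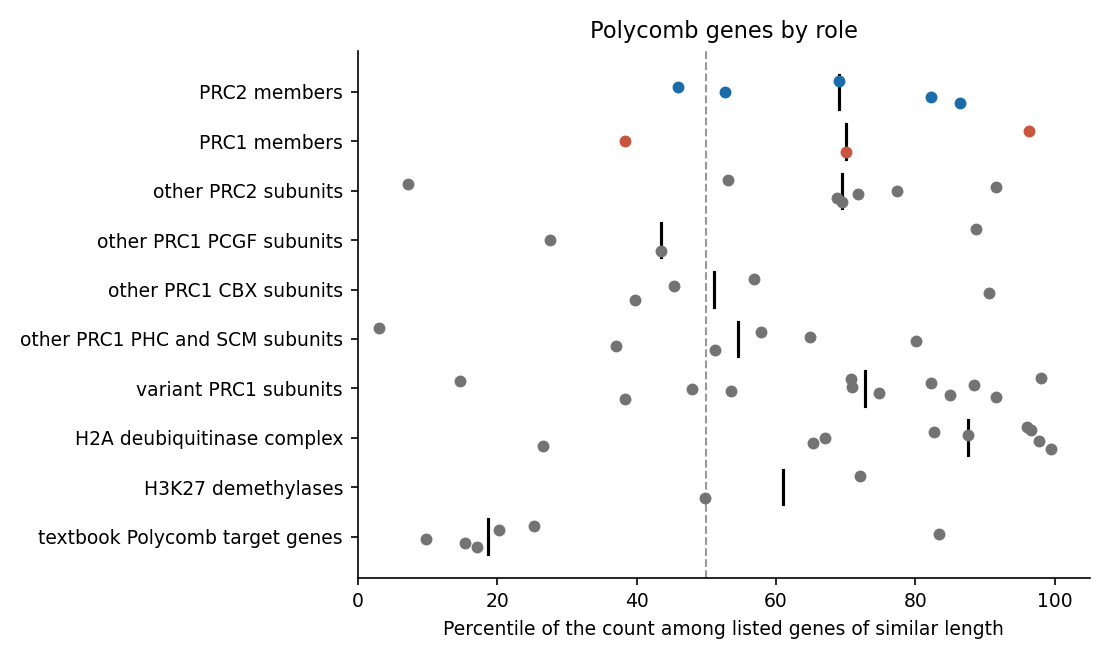
Percentile of each gene's count among listed genes of similar length, by role, with 1 dot per listed gene, a black bar at each group's median and a dashed line at 50. PRC2 and PRC1 members are coloured. Genes of the H2A deubiquitinase complex lie to the right (median 87.5) and textbook target genes to the left (median 18.7).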

How the data were processed

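CTCF PAR-CLIP was performed in 2 biological replicates, which the authors merged per the labels, and the deposited counts, 1 per Ensembl gene, come from that merge. The submitters' processing notes name the build hg19 and the programs Bowtie and bedtools. Not given in the sources used here: tool versions and roles, what was counted (reads or sites), how reads with several matches were handled, and strand. The counts were not scaled by the authors, as far as the deposited values show.

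Identifiers were matched to symbols for 16520 of 17201 genes. The members and gene lists were chosen with earlier results of these data known. Counts were divided by interval length and ranked within 50 length groups (Python 3.11.15, pandas 2.3.3, scipy 1.17.1). The ranking code was run on simulated Poisson counts with known changes, which checks the code and says nothing of the spread of the real counts. Each length group held 344 or 345 genes. For each other list, the genes named are the highest and lowest by count, the absent ones and, with 6 or more listed, the next 2 by count. Genes that overlap a member or are named after one are also given. The read-through and pseudogene adjustments were chosen after seeing the data. Some items are not reported here. The counts summed to 1322047, which is not the library depth, since overlapping genes can share reads. Coordinates of the starts are in GRCh38.p14 and all others in hg19.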

Additional observations from a re-analysis of the deposited data

How the results depend on the processing

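The number of listed members (8) was 8 at a minimum of 10 or of 5 counts, 7 without genes that overlap another listed gene, and 6 at a minimum of 50. Their median of 87.5 ranged from 78 to 87.5. The number above the median of their length group (6) ranged from 5 to 7: at a minimum of 10 counts EZH2 was at the 49.5th percentile, and without matching on length EZH1 was at the 60.3rd. RING1, below the median in each setting, moved from the 38.4th percentile to the 18.5th at a minimum of 10 counts and to the 28.9th among protein-coding genes. For the 48 other Polycomb genes the number (31 of 43 listed) ranged from 24, without overlapping genes, to 32. The setting that gave 24 left out 9 of the 43, so the 2 numbers are of different totals. The 3 shares depended on scale. Per kb, the EZH2 share moved from 62.2% to 48.9%, the RNF2 share from 87.7% to 34.6% and the PRC2 share from 72.0% to 27.1%, because the intervals differ in length. The PRC2 share was 86.7% without overlapping genes (44.8% per kb), 81.6% with BMI1 at 50 counts, and 75.4% with the counts of SUZ12P1 added to SUZ12. These last 2 settings, the minimum of 50 and the per kb share without overlapping genes were chosen after seeing the data. Leaving out a replicate was not run, since the table holds the merge alone. No paired analysis was possible because values of each replicate were not used here and the series has 1 condition. Depth limits RING1 most, at 13 counts.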

Other observations

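Some further values belong to the same genes and were singled out after they were seen. RYBP and YAF2 encode alternative subunits of variant PRC1 and have intervals of similar length, 72.3 and 79.2 kb. RYBP had 246 counts (95% Poisson interval 216 to 279), or 3.40 per kb, and YAF2 had 50 (37.1 to 65.9), or 0.631 per kb. The Poisson intervals of these 2 paralogs did not overlap, on either scale.

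The gene beside SUZ12 is also duplicated beside SUZ12P1. LRRC37B had 55 counts over 14.0 kb and its pseudogene LRRC37BP1 had 55 over 7.62 kb. The share of reads that map to both copies was not tested.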
